A study of Mus musculus with 8 samples.

Results

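The genes described here are 38 genes of motile cilia, the beating cilia of the airway epithelium, chosen by symbol as regulators of the ciliated cell, dynein arms, radial spokes and other parts of the axoneme. Of these, 35 have a row among the 23469 genes of the count table, and Dnah3, Dnah12 and Cfap54 were not analysed here. The table holds 8 libraries of lung RNA from C57BL/6 mice, 2 from each of 4 groups. The groups were wild type mice given PBS (WT PBS), wild type mice given house dust mite extract (WT HDM), and DDAH1-transgenic mice given the one or the other (DDAH1TG PBS and DDAH1TG HDM). HDM was instilled into the trachea at 100 µg in 50 µl of PBS, and PBS alone at 50 µl, 3 times per week for 3 weeks, and lungs were taken 24 hours after the last challenge. The promoter that drives the transgene, the sex of the mice and their age are not given in the sources used here. Equal RNA of 4 mice was pooled within each group and sequenced in duplicate, so an SD below is the spread of 2 libraries from 1 pool. All p-values measure that technical spread and no variation between mice.

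Motile cilia are built on microtubule doublets that carry outer and inner dynein arms, motors that slide the doublets past each other. Radial spokes and a central pair of microtubules coordinate the motors, assembly factors fold the arms in the cytoplasm, and Foxj1 and the Rfx factors switch on the genes of the whole structure. In the airway these cilia move mucus out of the lung, and the ciliated cell shares the epithelium with club cells and, in allergic airways, with mucus-filled goblet cells.

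Rfx factors bind a palindromic DNA element, the X-box, so the promoters of the 35 genes were searched for it as background to genes that could move together. RefSeq promoter entries of GRCm38.p6, running from 250 bases before a start to 50 bases after it, were found for 30 of the 35 genes, as 35 entries. The X-box, searched as GTNNCCNNGGNNAC on both strands, was present in 6 of these entries (17.1%) and in 1.88% of 32851 entries of all genes. These are the 6 matches, 5′ to 3′ along the strand of the gene, with the X-box in capitals and up to 8 bases on either side.
Cfap126 (chr1:171122955-171122984, plus strand): tgttcaagGTATCCATGGCTACttctcagt
Zmynd10 (chr9:107547296-107547325, plus strand): gctccctcGTTTCCATGGCGACgacgactc
Ccno (chr13:112987575-112987604, plus strand): gggctgcgGTTGCCACGGTGACgacagacg
Tekt4 (chr17:25471422-25471451, plus strand): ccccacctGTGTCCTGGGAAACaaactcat
Rsph9 (chr17:46144185-46144214, minus strand): ggctcaggGTCTCCATGGAGACagcttcta
Rfx2 (chr17:56830959-56830982, minus strand): tagagactGTAGCCGTGGAGACtg
The match of Rfx2, itself a gene of an X-box-binding factor, lies after the start. That of Zmynd10 begins at the start, that of Rsph9 spans it, and that of Cfap126 belongs to the last of its 3 listed starts. The shorter letters GTTGCC, which can be part of an X-box, was in 16 of the 35 entries (45.7%) and in 12.5% of all entries. CCAAT, a common promoter element, was in 40% and 37.4%, and the forkhead letters TGTTTAC were in 0% and 3.65%. A match describes letters in this window and no bound factor, and the count data hold no measure of binding.

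Depth set what these genes could show. A library held between 5694928 and 11929374 counts in all, of which 8350 to 26547 fell on the 35 genes, and both lowest values belonged to DDAH1TG HDM replicate 1. A level is given as CPM, counts scaled to the TMM library size, and 3 counts, the limit that a count of 0 allows, came to between 0.232 and 0.449 CPM. No member was at or under 3 counts in both libraries of a group, but 13 members had fewer than 30 counts in some library. The tissue label matched its markers: the alveolar type 2 list (Sftpc, Sftpb, Lamp3 and Abca3) summed to between 8641 and 18713 CPM. All 7 ciliated cell markers (Foxj1, Dnah5, Dnah9, Rsph1, Tekt1, Tppp3 and Sec14l3) were detected. These 7 are themselves members, so they are no separate check. Ddah1, the gene named by the transgene, had 47.7 and 34.3 CPM in WT PBS, 76.9 and 53.8 in DDAH1TG PBS, 43.1 and 44.7 in WT HDM, and 34.9 and 33.4 in DDAH1TG HDM. The libraries labelled DDAH1TG HDM thus lay below those labelled WT HDM, against their genotype label. Reads of the transgene enter this row only if they align to the mouse gene. The label is used below as given.

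The levels of the members spanned a wide range, and 2 genes carried most of the reads. Sec14l3, a lipid transfer protein made in ciliated airway cells, took between 43.4% and 56.3% of the summed CPM of the 35 genes in each library. It lies at chr11:4064853-4078990 of GRCm38 with 12 exons. Per kilobase of transcript, the mean of the 4 group means was 355 CPM for Sec14l3 and 115 for Tppp3, a tubulin-binding protein that promotes microtubule assembly. Foxj1, the forkhead factor that directs the motile cilia program, followed at 16.8 CPM per kb and Rsph4a at 11.2. The other 31 lay between 9.15 (Spag16) and 0.844 (Ccno) CPM per kb, and the median of the members was 3.66. These values divide by the whole transcript, although the authors summed reads over coding regions. Per kilobase of coding sequence, Sec14l3 had 791 CPM, Tppp3 303 and Foxj1 34.8. Rfx3 (20.9, against 5.13 by transcript) then stood above Rsph4a (19.1), and Dnah1 (0.900) was lowest, so the order below Foxj1 depends on the length used.

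**Figure D1:**
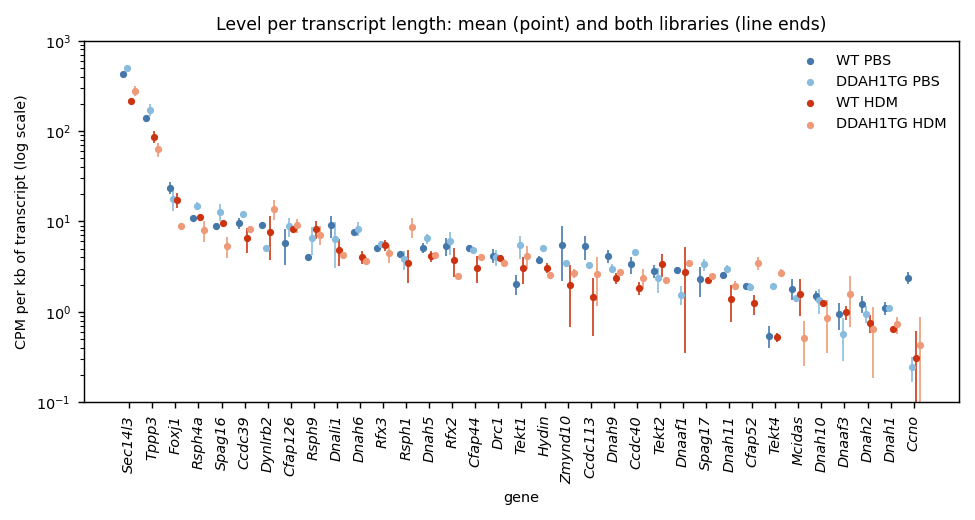
Level of each of the 35 genes per kilobase of transcript (CPM per kb, log axis) in the 4 groups, where points are means of 2 libraries and line ends are the 2 libraries; lines that reach the lower edge include a library at 0. Sec14l3 and Tppp3 stand above the other genes in every group.

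Among the regulators, Rfx3 had between 31.7 and 57.1 CPM over the 8 libraries and Rfx2 between 8.04 and 25.4. Mcidas, the coactivator that starts centriole multiplication, had between 0.599 and 5.45 CPM. Ccno, which acts after it in the same process, had 38 and 63 counts in WT PBS and at most 21 in any other library, with 0 counts in WT HDM replicate 2 and in DDAH1TG HDM replicate 1. The 7 dynein heavy chains are encoded by transcripts of 12652 to 15637 bases. Of the outer arm chains, Dnah5 had between 55.5 and 115 CPM, Dnah9 between 27.7 and 66.6, and Dnah11 between 10.9 and 46.6. Of the inner arm chains, Dnah6 had 42.1 to 124 CPM, Dnah10 4.94 to 25.0, Dnah2 2.55 to 20.6 and Dnah1 7.34 to 16.5. Per kilobase, Dnah6 at a mean of 5.92 CPM stood above Dnah10 (1.25), Dnah2 (0.896) and Dnah1 (0.891). The small subunits Dnali1, a light intermediate chain of the inner arm, and Dynlrb2, a roadblock light chain, had 6.45 to 24.7 and 1.91 to 8.90 CPM.

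The arm assembly factors had few counts. Zmynd10 had between 1.21 and 15.6 CPM, Dnaaf1 between 0.983 and 14.8, and Dnaaf3 between 0.634 and 5.50. In the radial spoke head, Rsph4a had 21.7 to 60.0 CPM, Rsph1 2.50 to 12.9 and Rsph9 3.72 to 9.65, which per kilobase came to means of 11.2, 5.10 and 6.50. Ccdc39 and Ccdc40, which together form the ruler that spaces the arms, had 16.0 to 44.5 and 7.63 to 23.1 CPM, and Drc1 of the nexin-dynein link had 7.82 to 12.1. In the central pair apparatus, Hydin had between 40.0 and 81.1 CPM, Spag16 between 8.39 and 33.0, and Spag17 between 11.4 and 30.1.

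Of the tektins, filament proteins along the doublets, Tekt1 had between 2.20 and 10.1 CPM, Tekt2 between 2.49 and 6.73, and Tekt4 between 0.603 and 4.57. Of the remaining axoneme and basal body genes, Cfap44 had 13.6 to 34.9 CPM, Cfap126 3.42 to 11.4, Ccdc113 0.703 to 8.84, and Cfap52 2.05 to 8.83. Exons of other genes on the opposite strand cover 34.2% of the exon bases of Ccdc39 (Ttc14), 25.7% of Tekt2 (Gm12945), 20.7% of Dnaaf1 (Taf1c) and 17% of Spag17 (Spag17os and Wdr3), while 16.5% of Dnaaf3 is covered on either strand (Gm15873 and Tnni3). Whether counting used the strand is not given in the sources used here, so the values of these 5 genes are uncertain. Sec14l3, Foxj1, Dnah5 and Dynlrb2 share no exon base with another gene.

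The first question was whether the transgene changed these genes in the absence of allergen. None of the 35 members passed the test between DDAH1TG PBS and WT PBS, where 0.657% of 14926 genes passed (quasi-likelihood test of edgeR, adjusted p under 0.05, over all genes), and 2 had an unadjusted p under 0.05. DESeq2 also called 0 members. Of the 35, 17 had a higher and 18 a lower value in the transgenic libraries, and the median log2 fold change was -0.02, against 0.00 over all genes tested. The 2 libraries of one group did not overlap those of the other for 9 members on the higher side and 5 on the lower, where all genes gave 20.0% and 20.4%. Those shares of the members, 25.7% and 14.3%, lie on either side of the shares of all genes.

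By role, the regulators had a median log2 fold change of -0.35 under PBS, the dynein arms -0.16, the assembly factors -0.73, the group of spokes, ruler, nexin link and central pair 0.42, and the tektins and others 0.20. The smallest unadjusted p belonged to Ccno. Its counts gave 3.82 and 5.14 CPM in WT PBS and 0.599 and 0.317 in DDAH1TG PBS, so that the groups did not overlap. The log2 fold change, given with its standard error (SE), was -3.26 (SE 0.96, adjusted p = 0.169, edgeR), resting on at most 6 counts in a transgenic library. Tekt1 had 3.72 and 2.20 CPM in WT PBS and 10.1 and 5.60 in DDAH1TG PBS, also without overlap, and a log2 fold change of 1.40 (SE 0.66, adjusted p = 0.499).

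Among the 3 genes followed in every comparison, Foxj1 had 52.8 and 70.9 CPM in WT PBS and 34.2 and 57.8 in DDAH1TG PBS. The groups overlapped, and the log2 fold change was -0.44 (SE 0.26, adjusted p = 0.635). Dnah5, with a transcript of 15637 bases, had 90.2 and 69.2 CPM against 88.3 and 115, and Dynlrb2, the shortest at 515 bases, had 5.02 and 4.49 against 2.69 and 2.54. The log2 fold changes were 0.34 (SE 0.20, adjusted p = 0.630) for Dnah5, with overlapping groups, and -0.87 (SE 0.73, adjusted p = 0.752) for Dynlrb2, where both transgenic libraries were the lower ones.

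The second question was the effect of genotype after allergen. Between the libraries labelled DDAH1TG HDM and those labelled WT HDM, again none of the 35 members passed the test, while 2.44% of 15191 genes passed, 3 members had an unadjusted p under 0.05, and DESeq2 called 0. The member median was 0.20 and that of all genes 0.01, with 20 members higher and 15 lower. Groups without overlap were found for 6 members on the higher side (17.1%, against 23.2% of all genes) and 5 on the lower (14.3%, against 25.0%).

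Foxj1 had 53.7 and 36.6 CPM in WT HDM and 21.4 and 25.5 in DDAH1TG HDM. Both transgenic libraries were below both wild type libraries, at a log2 fold change of -0.91 (SE 0.33, adjusted p = 0.197, edgeR). Of the 5 regulators, 4 had a lower value, with a median of -0.57, and none passed the threshold. Mcidas was at -1.55 (SE 1.10, adjusted p = 0.532), Rfx2 at -0.57 (SE 0.54, adjusted p = 0.660) and Rfx3 at -0.26 (SE 0.32, adjusted p = 0.750). Ccno was at 0.56 (SE 1.88, adjusted p = 0.923) on 0 to 21 counts per library. Sec14l3 lay on the other side of 0, with 565 and 593 CPM in WT HDM and 652 and 845 in DDAH1TG HDM, without overlap and with a log2 fold change of 0.41 (SE 0.17, adjusted p = 0.271). Tekt4 had 0.715 and 0.904 CPM against 3.74 and 4.57, a log2 fold change of 2.38 (SE 1.07, adjusted p = 0.295). It also lay higher in both transgenic libraries under PBS, at 2.79 and 3.17 CPM against 0.603 and 1.06 (log2 fold change 1.81, SE 0.96, adjusted p = 0.570). Its counts were only 8 and 9 in WT HDM and 6 and 13 in WT PBS. The genotype comparisons share no library, but Tekt4 was named after its values were seen and passed the test in neither.

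Dnah5 was at 73.6 and 55.5 CPM in WT HDM and at 65.9 and 66.2 in DDAH1TG HDM, a log2 fold change of 0.07 (SE 0.26, adjusted p = 0.929), with the transgenic libraries between the wild type ones. Dynlrb2 was at 5.90 and 1.91 CPM against 5.39 and 8.90, a log2 fold change of 0.91 (SE 0.77, adjusted p = 0.608), with overlap.

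**Figure D2:**
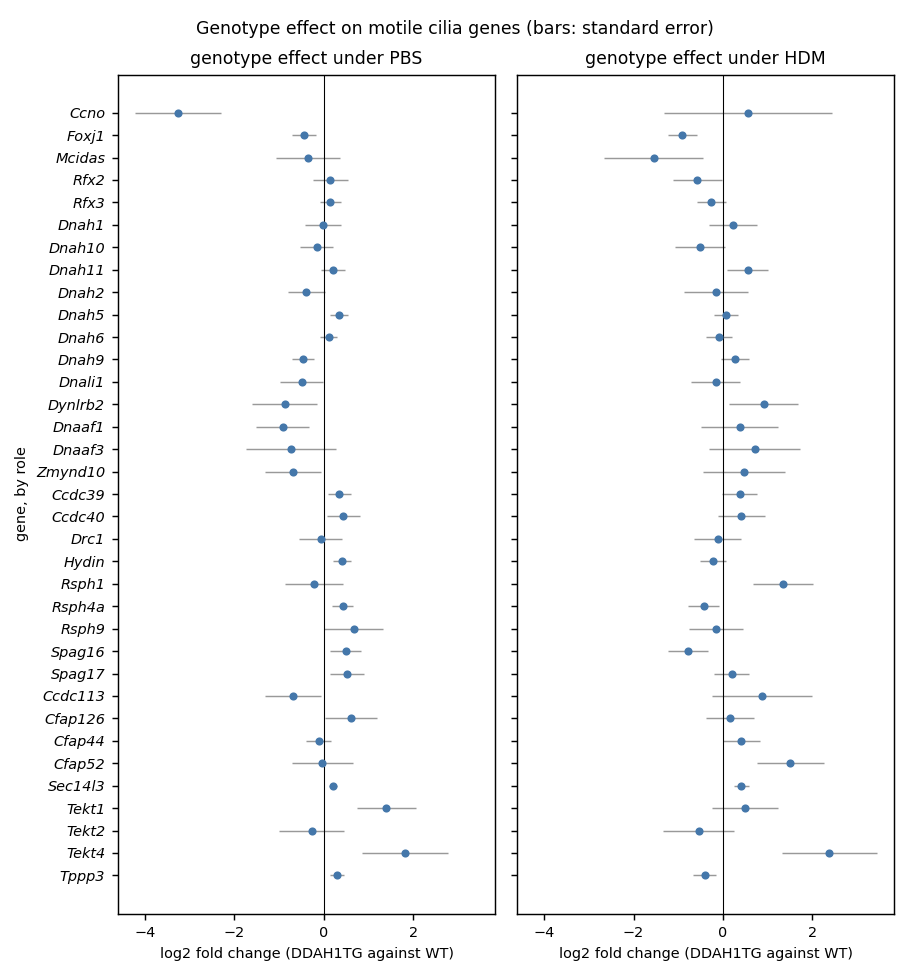
Log2 fold change of each gene between DDAH1-transgenic and wild type libraries under PBS (left) and HDM (right), ordered by role, where points are edgeR estimates and bars standard errors. No gene passed the test in either panel, and the widest bars belong to low-count genes such as Ccno, Dnaaf3 and Tekt4.

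With HDM the motile cilia genes that passed the test moved downward. In wild type mice 3 of the 34 members tested fell and none rose, in DDAH1-transgenic mice 4 of 34 fell and none rose. The called genes were Sec14l3, Tppp3 and Dnah6 in both genotypes and Hydin in the transgenic mice. In both genotypes 26 members had a lower and 8 a higher value, with median log2 fold changes of -0.39 and -0.46, against 0.02 and 0.03 over all genes tested. Over all genes, 6.74% of 15123 passed in wild type mice (672 higher, 348 lower) and 13.8% of 15086 in transgenic mice (1272 higher, 807 lower). Lower calls alone were 2.30% and 5.35% of all genes and 8.82% and 11.8% of the members. Of the values called or not, more were negative among the members than among all genes, as the medians show. Tekt4 in wild type and Ccno in transgenic mice did not pass the low-count filter. Lung RNA is bulk RNA, so that fewer ciliated cells and less of a transcript per ciliated cell cannot be told apart.

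The groups of libraries did not overlap for 13 members on the lower side and 1 on the higher in wild type mice, which is 38.2% and 2.94% of the members, against 24.7% and 25.0% of all genes. In transgenic mice 18 members were lower without overlap and 5 higher, which is 52.9% and 14.7%, against 28.0% and 28.8% of all genes. The HDM comparisons of the 2 genotypes share no library. Of the 33 members tested in both, 21 (63.6%) were lower in both and 3 higher in both, whereas 30.5% of 14641 genes were lower in both and 33.1% higher in both.

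HDM treatment and sex markers moved together in these libraries. Xist, transcribed from an inactive X chromosome, had between 11.3 and 20.8 CPM in the PBS libraries and between 2048 and 3040 in the HDM libraries. The Y-linked Ddx3y had 58.7 to 69.0 CPM in the PBS libraries and 2 or 3 counts in each HDM library. An effect of HDM and a difference of sex cannot be told apart in either genotype.

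Sec14l3 was the member with the smallest adjusted p in wild type mice. It had 1110 and 1198 CPM in WT PBS and 565 and 593 in WT HDM, a gap far wider than the distance between duplicates. The log2 fold change was -1.0 (SE 0.11, adjusted p = 3.28e-05, edgeR). In transgenic mice it had 1302 and 1363 CPM under PBS and 652 and 845 under HDM, again without overlap, with a log2 fold change of -0.81 (SE 0.17, adjusted p = 0.00752) that no longer passed when either PBS library was left out (adjusted p = 0.109 without replicate 1 and 0.154 without replicate 2).

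Tppp3 (chr8:105467492-105471422, GRCm38) had 194 and 195 CPM in WT PBS and 139 and 102 in WT HDM. Both HDM libraries were lower, at a log2 fold change of -0.69 (SE 0.17, adjusted p = 0.0263), but the call was lost in 3 of the 4 fits that leave out 1 library (adjusted p = 0.0536 without WT PBS replicate 1, 0.0848 without WT PBS replicate 2 and 0.0816 without WT HDM replicate 2). In transgenic mice it had 203 and 279 CPM under PBS and 72.3 and 104 under HDM. That was the largest fall among called members, -1.43 (SE 0.24, adjusted p = 0.00251), and it was lost without DDAH1TG PBS replicate 2 (adjusted p = 0.115).

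Dnah6, an inner arm heavy chain on chromosome 6, had 102 and 92.0 CPM in WT PBS and 42.8 and 59.0 in WT HDM. Its log2 fold change was -0.93 (SE 0.21, adjusted p = 0.0166), with adjusted p = 0.0798 without WT PBS replicate 1. In transgenic mice 124 and 86.6 CPM stood against 42.1 and 50.7, without overlap, a log2 fold change of -1.16 (SE 0.27, adjusted p = 0.0137). Without DDAH1TG PBS replicate 1 or 2 the adjusted p was 0.212 or 0.0816. Hydin, a very large protein of the central pair, had 77.8 and 81.1 CPM in DDAH1TG PBS and 40.3 and 40.0 in DDAH1TG HDM. The libraries did not overlap, at a log2 fold change of -0.96 (SE 0.26, adjusted p = 0.0290), with adjusted p = 0.170 or 0.233 without DDAH1TG PBS replicate 1 or 2. In wild type mice Hydin had 53.7 and 64.9 CPM against 42.2 and 54.3, with overlap and a log2 fold change of -0.30 (SE 0.23, adjusted p = 0.541).

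As background to the 4 called members, the 250 bases before the RefSeq start are shown for the 3 that have a promoter entry. A common regulator of these genes was not tested. The bases are from GRCm38.p6, 5′ to 3′ along the strand of the gene, with GTTGCC or its reverse complement in capitals.
Sec14l3 (chr11:4064603-4064852, plus strand): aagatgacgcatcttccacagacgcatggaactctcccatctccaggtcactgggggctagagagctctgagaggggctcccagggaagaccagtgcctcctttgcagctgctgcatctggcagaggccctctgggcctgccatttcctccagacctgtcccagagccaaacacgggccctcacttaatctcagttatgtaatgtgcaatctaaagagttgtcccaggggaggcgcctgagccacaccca
Dnah6 (chr6:73221632-73221881, minus strand): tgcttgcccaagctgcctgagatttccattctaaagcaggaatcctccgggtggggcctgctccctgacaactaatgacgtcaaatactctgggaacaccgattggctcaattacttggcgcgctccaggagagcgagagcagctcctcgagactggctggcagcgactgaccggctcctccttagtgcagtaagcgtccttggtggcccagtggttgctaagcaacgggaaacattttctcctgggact
Hydin (chr8:110266727-110266976, plus strand): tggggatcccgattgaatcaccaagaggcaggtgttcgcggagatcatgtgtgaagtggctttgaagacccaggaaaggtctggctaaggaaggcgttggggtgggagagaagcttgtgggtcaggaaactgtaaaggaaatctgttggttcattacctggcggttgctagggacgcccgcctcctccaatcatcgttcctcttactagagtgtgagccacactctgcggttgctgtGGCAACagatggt
Hydin holds these letters once, and in the windows of Dnah6 and Sec14l3 they were not found. None of the 3 holds the X-box as searched, and that search allowed no mismatched base and no other spacing.

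**Figure D3:**
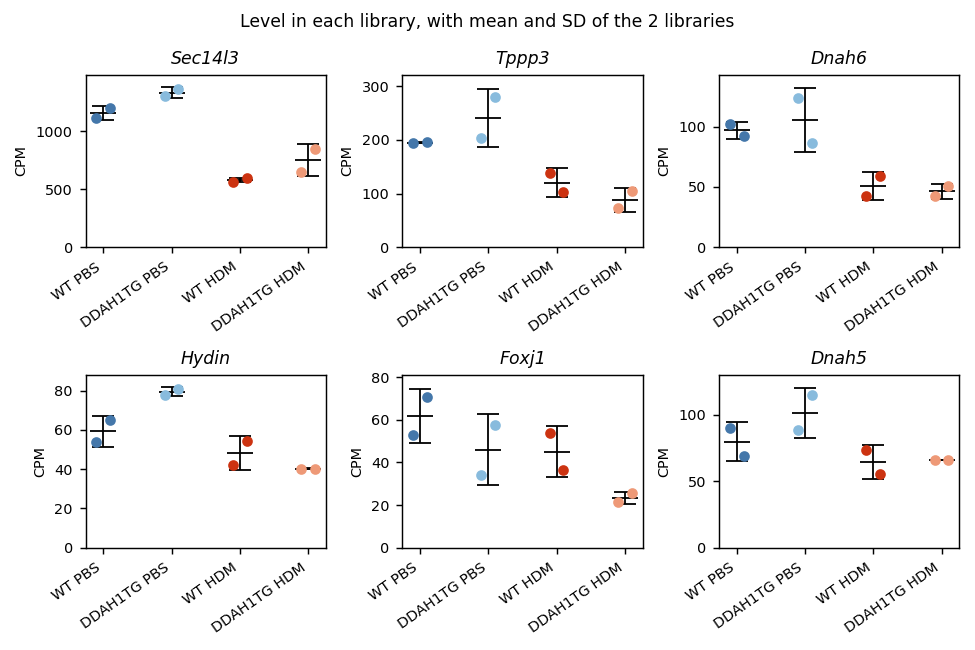
CPM of 6 genes in each of the 8 libraries (points), with the mean and SD of the 2 libraries of a group (horizontal marks and bars, axes from 0). Sec14l3, Tppp3 and Dnah6 are lower in all HDM libraries than in all PBS libraries, whereas Foxj1 and Dnah5 overlap between treatments in wild type mice.

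Foxj1 had 52.8 and 70.9 CPM in WT PBS and 53.7 and 36.6 in WT HDM, with overlap and a log2 fold change of -0.46 (SE 0.26, adjusted p = 0.354). In transgenic mice 34.2 and 57.8 CPM under PBS stood above 21.4 and 25.5 under HDM. That log2 fold change of -0.95 (SE 0.35, adjusted p = 0.0937) did not pass. All 4 regulators tested in transgenic mice had lower values after HDM, with a median of -1.10. Among all genes tested in both genotypes, 48.8% were lower there. Rfx2, for example, had 25.4 and 13.9 CPM against 8.09 and 8.21.

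All 9 dynein arm genes had a lower value after HDM in wild type mice, with log2 fold changes from -0.93 to -0.26 and a median of -0.79. In transgenic mice 8 of the 9 were lower, with a median of -0.59, and Dynlrb2 was the exception. Among all genes tested in both genotypes, 48.6% were lower in wild type and 48.8% in transgenic mice. The heavy chains among the 9 are over 5 kb, where all genes had medians of -0.09 and -0.33 in the same order. Of these 9, Dnah6 alone passed in either genotype. Dnah9 had 66.6 and 48.2 CPM in WT PBS and 27.7 and 37.3 in WT HDM, without overlap (log2 fold change -0.82, SE 0.27, adjusted p = 0.0877), but 46.1 and 37.1 against 37.3 and 38.9 in transgenic mice, with overlap. Dnah5 had log2 fold changes of -0.30 (SE 0.22, adjusted p = 0.499) in wild type and -0.60 (SE 0.24, adjusted p = 0.131) in transgenic mice, where both HDM libraries, at 65.9 and 66.2 CPM, were below the PBS libraries at 88.3 and 115. Dynlrb2 had -0.28 (SE 0.74, adjusted p = 0.886) in wild type and 1.47 (SE 0.75, adjusted p = 0.229) in transgenic mice, with 2.69 and 2.54 CPM under PBS and 5.39 and 8.90 under HDM.

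The spokes, ruler, nexin link and central pair had medians of -0.11 in wild type and -0.56 in transgenic mice. Spag16 was at 20.6 and 17.6 CPM in WT PBS and 18.9 and 21.4 in WT HDM, but at 21.4 and 33.0 in DDAH1TG PBS and 8.39 and 14.4 in DDAH1TG HDM. Rsph9 had log2 fold changes above 0 in both genotypes (1.01 and 0.16), and Rsph1 in transgenic mice alone (1.21, against -0.33 in wild type). Rsph1 was higher without overlap in transgenic mice (3.49 and 5.60 against 12.9 and 7.82 CPM), and Rsph9 in wild type mice (3.72 and 4.16 against 9.65 and 6.23 CPM). The assembly factors had medians of -0.07 and 1.19, with a smallest adjusted p of 0.240, on few counts. The remaining tektin and other genes were not called apart from Sec14l3 and Tppp3.

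**Figure D4:**
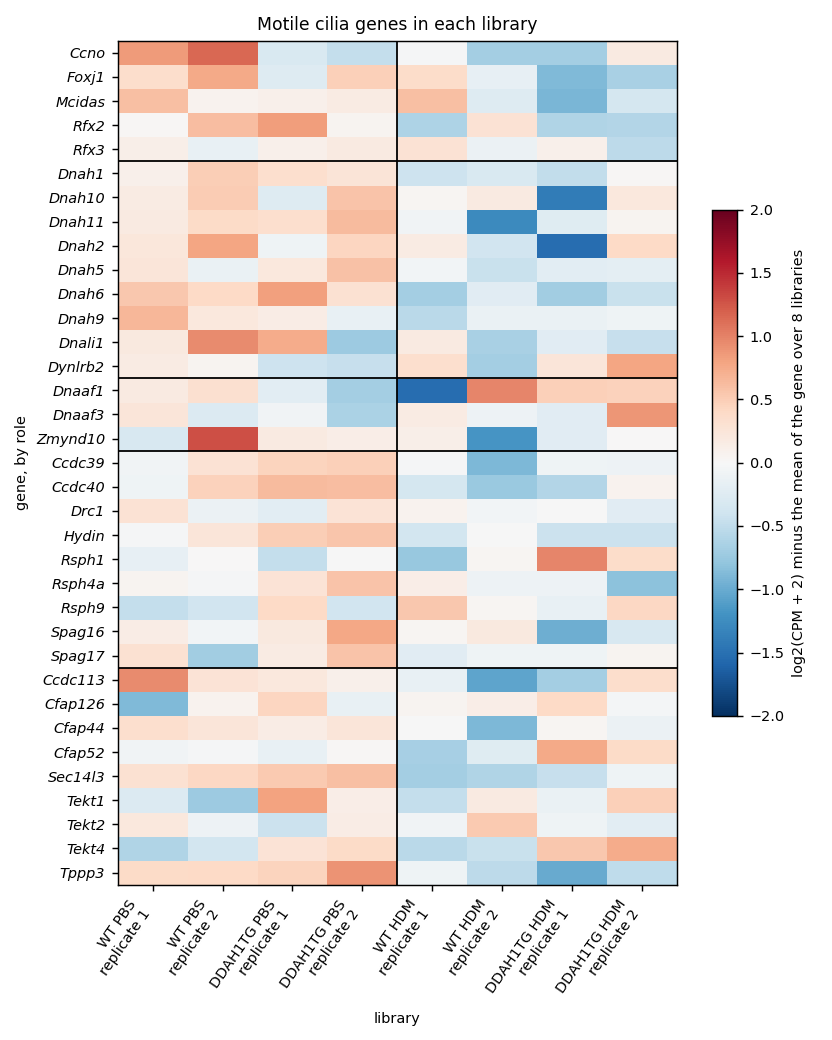
Each of the 35 genes (rows, grouped by role as regulators, dynein arms, assembly factors, spokes to central pair, and tektins and others) in each library (columns), coloured by log2(CPM + 2) minus the mean of the gene over the 8 libraries. The 4 PBS libraries on the left are mostly above the mean of the gene, with exceptions such as Rsph1 and Rsph9.

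Summed over the members without Sec14l3 and Tppp3, the libraries had 760 and 774 CPM in WT PBS, 806 and 842 in DDAH1TG PBS, 597 and 539 in WT HDM, and 526 and 563 in DDAH1TG HDM. All 4 HDM libraries lay below all 4 PBS libraries. The duplicates themselves differed, however: the median size of the log2 ratio between the 2 libraries of a group was 0.39, 0.55, 0.42 and 0.45 for the members in WT PBS, WT HDM, DDAH1TG PBS and DDAH1TG HDM, against 0.33, 0.39, 0.37 and 0.45 for all genes. The widest pairs were Dnaaf1 in WT HDM (3.36), Dnah2 in DDAH1TG HDM (2.37), Zmynd10 in WT PBS (1.90) and Dnali1 in DDAH1TG PBS (1.64).

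Whether HDM acted differently in the 2 genotypes was tested as the interaction over all 8 libraries. None of the 35 members passed, against 1.76% of 15868 genes, 3 had an unadjusted p under 0.05 (Tppp3, Spag16 and Rsph4a), and DESeq2 called 0. The interaction of Tppp3 was -0.76 (SE 0.31, adjusted p = 0.253), that of Hydin -0.69 (SE 0.34, adjusted p = 0.368), that of Dnah6 -0.25 (SE 0.34, adjusted p = 0.805) and that of Sec14l3 0.16 (SE 0.19, adjusted p = 0.759). So Hydin, called in 1 genotype, is not shown to differ between them. Foxj1 (-0.51, SE 0.44, adjusted p = 0.643), Dnah5 (-0.32, SE 0.33, adjusted p = 0.720) and Dynlrb2 (1.73, SE 1.06, adjusted p = 0.481) did not pass either.

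Several marker lists of other cell types also differed in level between the libraries. The club cell list (Scgb1a1, Scgb3a2, Cyp2f2 and Scgb3a1) summed to 29350 to 53887 CPM in the PBS libraries and 10180 to 13957 in the HDM libraries. Scgb1a1 and Cyp2f2 fell in both genotypes, while Scgb3a2 fell in wild type and rose in transgenic mice, as did Scgb3a1 in the latter. The goblet cell list (Muc5ac, Muc5b, Spdef, Clca1 and Agr2) summed to 566 to 769 CPM under PBS and 1840 to 4328 under HDM. In each genotype all 5 of its genes were higher in both HDM libraries than in both PBS libraries. Spdef had only 1 to 30 counts per library. The general epithelial list (Epcam, Cdh1, Krt8 and Krt18) summed to 400 to 486 and 394 to 714 CPM, and none of its 4 genes was called. The basal cell list (Krt5, Krt14 and Trp63) summed to 0.0998 to 4.32 CPM under PBS and 5.32 to 11.7 under HDM. The skeletal muscle list (Ckm, Myh4, Acta1 and Tnnt3) summed to 41.2 and 43.6 CPM in WT PBS, 176 and 182 in DDAH1TG PBS, 138 and 147 in WT HDM, and 77.6 and 87.4 in DDAH1TG HDM. The alveolar type 2 list had 12654 and 12900 CPM in WT PBS and 8641 and 10137 in WT HDM, against 14339 and 18713 and 9713 and 14040 in the transgenic groups. The thymocyte list (Rag1, Rag2, Cd8b1 and Ptcra) had 46.3 and 57.9 CPM in WT PBS and between 11.5 and 17.8 in the other libraries. The neutrophil list (S100a8, S100a9, Retnlg and Cxcr2) had 281 and 285 CPM in WT PBS, 127 and 129 in WT HDM, 110 and 115 in DDAH1TG PBS, and 160 and 180 in DDAH1TG HDM. The adipose list (Adipoq, Plin1, Cfd and Fabp4) had 67.5 and 77.9, 37.1 and 37.1, 14.1 and 18.0, and 109 and 100 CPM in the same order. These lists did not share 1 pattern over the groups. The eosinophil list summed to 7.78 to 16.1 CPM under PBS and 18.3 to 27.7 under HDM, and the alveolar type 1 list to 561 to 1071 over all libraries. The neuroendocrine list summed to 0.299 to 2.75, with 1 of its genes at 0 in all libraries. No gene of the other lists was at 0 in all libraries, and the part of such shifts in the values of the cilia genes was not tested.

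Transcript length mattered for these genes because they run from 515 to 15783 bases and because the log2 fold changes of all genes followed length. Spearman's rho between log2 fold change and transcript length, given as a description since genes share libraries, was -0.40 over the 34 members and -0.33 over 14352 genes for HDM in transgenic mice. It was -0.20 and -0.13 for HDM in wild type mice, -0.27 and -0.28 for genotype under HDM, and 0.07 and 0.01 for genotype under PBS. In transgenic mice the 10 members under 2 kb had a median of 0.01 with HDM, against 0.55 for all genes of that length, and the 11 members over 5 kb a median of -0.57, against -0.33. The 13 members of 2 to 5 kb, where all genes were centred at 0.01, had -0.81. In wild type mice the medians in the same order were -0.31, -0.46 and -0.71, against 0.16, 0.02 and -0.09. Members thus lay below genes of their own length class in each of these 6 medians.

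An offset for length, fitted as a smooth curve in each library, removed the trend over all genes, with rho of -0.01 in both HDM comparisons. Over the members rho became -0.06 for HDM in wild type mice. It changed sign to 0.19 for HDM in transgenic mice and to 0.19 for genotype under HDM. With the offset the HDM median of the members became -0.50 in wild type and -0.48 in transgenic mice, with 25 of 34 lower in each. Members under 2 kb then had medians of -0.52 and -0.62, and members over 5 kb -0.60 and -0.12. The calls of Sec14l3 and Tppp3 held, Tppp3 at -0.82 (adjusted p = 0.00877) and -1.93 (adjusted p = 5.30e-04). In transgenic mice the long genes lost theirs, Hydin at -0.50 (adjusted p = 0.257) and Dnah6 at -0.71 (adjusted p = 0.117), while Dnah6 in wild type kept it (-0.81, adjusted p = 0.0374). Dnah5 in transgenic mice moved from -0.60 to -0.13, and Dynlrb2, at the short end, from 1.47 to 0.49.

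**Figure D5:**
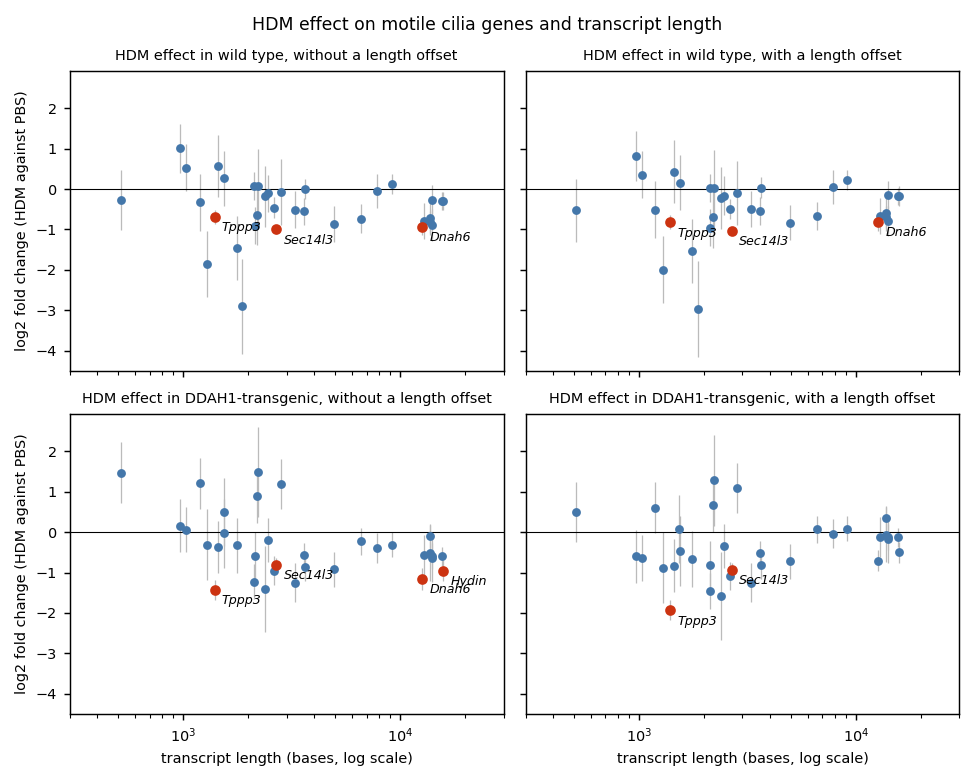
Log2 fold change (HDM against PBS) of each gene against transcript length (log axis), in wild type (top) and DDAH1-transgenic mice (bottom), without (left) and with (right) the length offset, where red points have an adjusted p under 0.05 and bars are standard errors. With the offset the genes over 10 kb move up in the lower right panel, and Hydin and Dnah6 lose their call there.

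Further genes of motile cilia, 81 in the table outside the 35, gave 1 lower call in each HDM comparison, 1.37% and 1.32% of those tested, against the 2.30% and 5.35% of all genes. With HDM, 52 of 73 tested had a lower value in wild type mice (median -0.33) and 48 of 76 in transgenic mice (median -0.21), where 48.6% and 48.8% of the genes tested in both were lower. Armc3, an armadillo-repeat gene, had 6.43 and 5.31 CPM in WT PBS and 0.893 and 0.502 in WT HDM, a fall of -3.04 on the log2 scale (SE 0.86, adjusted p = 0.0494). Cfap70, an outer arm-associated gene, had 11.7 and 22.1 CPM in DDAH1TG PBS and 5.24 and 4.18 in DDAH1TG HDM, a fall of -1.82 (SE 0.55, adjusted p = 0.0471). The call of Armc3 was lost with the replicate block (adjusted p = 0.0567), the coding length offset (0.0506) and all 8 libraries in 1 fit (0.155), and that of Cfap70 with the transcript length offset (0.0643) and the coding length offset (0.0790), and each was lost in 3 of the 4 fits that leave out 1 library. None of the list was called by genotype, at medians of -0.08 under PBS and 0.08 under HDM. The 28 intraflagellar transport genes, which build motile and non-motile cilia alike, had medians of -0.05 and -0.11 with HDM and no call with the settings used throughout. Ift20, a subunit of the transport train named here after its values were seen, was at -0.88 in transgenic mice (SE 0.28, adjusted p = 0.0558). It passed, as a lower value, under 9 of 12 alternatives (adjusted p from 1.07e-04 to 0.349 over the 12), and Kifap3 passed in 1 of them (0.0201, without DDAH1TG HDM replicate 1).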

How the data were processed

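Lung RNA of 4 groups, pooled from 4 mice each, was sequenced in 2 libraries per group after amplification. The authors aligned single reads to mm10 (GRCm38) with TopHat, summed reads over coding regions with ShortRead and custom R programs, and deposited raw counts per gene under Entrez identifiers. Versions of the aligner and annotation are not given in the sources used here. The motile cilia genes and all gene lists were chosen with earlier results of these data known. Names came from RefSeq (23372 of 23469 genes), and transcript lengths from the GENCODE M21 principal transcript of 21146 genes.

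Comparisons used edgeR 4.0.16 (R 4.3.3), quasi-likelihood test, TMM scaling, filterByExpr with a count minimum of 10, on the 4 libraries of a comparison or on all 8 for the interaction. Adjusted p-values (Benjamini-Hochberg) cover every gene tested, with a threshold of 0.05. CPM use the TMM library sizes of the 8 libraries together. Standard errors are the log2 fold change over the root of F. With 2 against 2 libraries an exact permutation test cannot go below p = 0.333, and none was used. The floor of 3 counts covers counting error only, whereas the standard errors also hold the spread estimated between duplicates. Alternatives were DESeq2 1.42.0, median-ratio size factors, a block for the replicate number, no low-count filter, length offsets (loess, span 0.5) with transcript or coding length, all 8 libraries in 1 fit, each library left out, and levels on library sizes without Rn45S, the 45S ribosomal RNA gene (8.58% to 21.8% of counts). All members are named with levels. Fold changes are given for members past the threshold, for Foxj1, Dnah5 and Dynlrb2 in every comparison, and for others chosen after their values were seen.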

Additional observations from a re-analysis of the deposited data

How the results depend on the processing

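Under the alternatives run, the called members kept their lower values after HDM, but few calls held throughout. Sec14l3 in wild type mice passed under every alternative. Members past the threshold in transgenic mice numbered 2 with either length offset (5.88%, against 4.31% and 5.89% of all genes called lower) and 7 with all 8 libraries in 1 fit (20.0%, against 8.08%), and 0 to 7 without 1 library (0 without DDAH1TG PBS replicate 2, where 0.279% of all genes were called lower, 1 without replicate 1, and 7, or 20.6% against 7.98% of all genes, without DDAH1TG HDM replicate 2). In wild type mice they numbered 1 to 10 without 1 library, 10 without WT HDM replicate 1 (28.6%, against 4.29% of all genes called lower in that fit) and 1 without WT PBS replicate 1 (2.86%, against 1.49%). Tppp3 there had an adjusted p of 0.0880 with all 8 libraries in 1 fit, and Foxj1 in transgenic mice passed with no low-count filter (0.0447), in the fit of all 8 libraries (0.0401) and with the length offset and block (0.0346). The call of Armc3 was lost in all fits that leave out 1 library except that without WT HDM replicate 1 (adjusted p from 0.0164 to 0.309), and that of Cfap70 in all except that without DDAH1TG HDM replicate 1 (0.0455 to 0.394). In the genotype comparison under HDM, among fits that kept all libraries, 1 of the 35 members was called, as lower, with the length offset and replicate block. That fit called 658 of 14416 genes (345 higher, 313 lower). Fits that leave out 1 library are not counted there, and they include a call in the higher direction, without DDAH1TG HDM replicate 1. Under PBS there were 0 member calls in all fits, and in the interaction 0 in the fits that kept all libraries. The causes were not tested.

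Median member log2 fold changes without 1 library ran from -0.52 to -0.35 (HDM in wild type), -0.55 to -0.34 (HDM in transgenic), 0.00 to 0.28 (genotype under HDM), 0.03 to 0.10 (genotype under PBS, against -0.02 with all libraries) and -0.23 to 0.15 (interaction). Counts of lower members ran from 24 to 29, 23 to 26, 12 to 17, 14 to 17 and 16 to 22 in the same order. The HDM median was -0.59 in wild type with the length offset and block, and -0.21 in transgenic mice with the coding length offset. The interaction of Dnah5 turned to 0.06 with the length offset, 0.06 with the block added and 0.08 with coding length. Without WT HDM replicate 2, Dnah5 by genotype under HDM was -0.11 (range -0.11 to 0.27) and Dynlrb2 with HDM in wild type 0.30 (range -1.31 to 0.30). Against coding length, rho over the members was 0.18 (genotype, PBS), -0.16 (genotype, HDM), -0.10 (HDM, wild type) and -0.25 (HDM, transgenic).

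Over all genes, the genotype comparison under HDM called 370 genes, 174 with the length offset (93 higher, 81 lower, against 279 and 91), 1055 without the filter and 6 to 1595 without 1 library. HDM in transgenic mice called 2079, 1404 with the length offset and 277 to 2676 without 1 library. Replicate numbers were only shared names, since duplicates with the same number deviated together at correlations of 0.00 to 0.05. With the replicate block 0 members passed by genotype, where 46 of 14926 genes passed under PBS and 625 of 15191 under HDM. With HDM 3 members were called lower in wild type mice (8.82%, against 2.55% of all genes). In transgenic mice 6 were called lower (17.6%, against 7.89% of all genes). In the interaction 0 members passed, against 363 of 15868 genes. Levels of Sec14l3 were 691 to 1590 CPM in the groups on library sizes without Rn45S. Low counts limit the assembly factors, tektins, Mcidas and Ccno.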
